A study of Mus musculus with 3 samples.

Results

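The 10 genes described here form the core of the mammalian circadian clock and its output: Arntl (also called Bmal1), Clock, Per1, Per2, Per3, Cry1, Cry2, Nr1d1, Nr1d2 and Dbp. They were taken by a list of symbols, which sets no condition on measured values, from 25410 symbols in the deposited files, and the rows of a symbol were summed. The data were RNA-seq counts from ribosomal RNA-depleted total RNA of IDG-SW3, a mouse cell line that differentiates from osteoblast-like into osteocyte-like cells and carries an interferon-inducible, temperature-sensitive T antigen and a green fluorescent protein driven by the Dmp1 promoter. The single group held 3 biological replicates at day 35 of differentiation, all treated with 100 nM parathyroid hormone (PTH) for 24 h. The cells had been expanded with interferon-gamma at a lower temperature, and were differentiated without it in ascorbic acid and beta-glycerol phosphate. Vehicle-treated libraries were not analysed here, so the effect of PTH on the clock genes was not measured, and the time of day of the harvest is not given in the sources used here.

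The libraries held 35195518, 37299517 and 45240005 counts in replicates 1, 2 and 3. Levels are given as RPKM, counts scaled to transcript length in kilobases and to the total of the library, as mean ± SD (n = 3), and they rest on reading the deposited whole numbers as counts. Of the 12 osteoblast and osteocyte markers, 8 were above 1 RPKM, with Sparc at 6409 ± 408 RPKM, whereas the osteocyte genes Dmp1, Mepe, Fgf23 and Sost were not called: Dmp1 had 77, 115 and 6 counts in replicates 1, 2 and 3 and Sost 2, 0 and 0. Of 4 markers each, 0 were above 1 RPKM for macrophages and for skeletal muscle (all 8 with a mean under 1 RPKM), 1 for endothelium (Kdr, with Pecam1 listed at 0) and 2 for cartilage (Sox9 and Col10a1). The adipocyte markers, 2 of 4 of them above 1 RPKM and Plin1 (2 rows) listed at 0, summed to 9.40, 9.98 and 16.5 RPKM in replicates 1, 2 and 3, and their part in any result below was not tested.

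The clock is a transcriptional feedback loop. The proteins of Arntl and Clock bind E-box sequences as a pair and activate the Per and Cry genes, whose proteins return to the nucleus and repress that pair. A second loop runs through Nr1d1 and Nr1d2 (Rev-erb alpha and beta), nuclear receptors that repress Arntl at sites shared with the activating ROR receptors. Dbp is a transcription factor of the D-box, driven directly by the activator pair and used as a readout of clock output. Bone cells carry this clock, and cyclic AMP, through which the PTH receptor signals, is known to induce Per1 and Per2 in several tissues.

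Short motifs of the kind these proteins bind can be read in some of the members' own promoters. RefSeq start-site windows on GRCm38.p6, 250 bases before to 50 bases after a start, were matched for 9 of the 10 members, in 13 windows; Per2 had no entry. Searched on both strands were the E-box CACGTG, the D-box TTANGTAA, the nuclear receptor half-site AGGTCA and the cyclic AMP response element TGACGTCA. None of these motifs contains another. The stretches below are shown because they place each kind of element that was found beside a member. Capitals mark the motif named, and every stretch reads 5′ to 3′ on the strand of the gene. The Per1 stretch also holds, in lower case near its end, the half-site read from the other strand (TGACCT).
Per1, E-box, chr11:69098753-69098818, plus strand: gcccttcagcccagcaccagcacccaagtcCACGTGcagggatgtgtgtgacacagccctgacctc
Cry1, E-box, chr10:85185079-85185144, minus strand: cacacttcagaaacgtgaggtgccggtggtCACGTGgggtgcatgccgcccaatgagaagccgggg
Per3, D-boxes, chr4:151044796-151044890, minus strand: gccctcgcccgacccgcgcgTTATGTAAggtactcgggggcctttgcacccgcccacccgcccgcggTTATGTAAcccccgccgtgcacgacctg
Nr1d2, half-site, chr14:18239148-18239213, minus strand: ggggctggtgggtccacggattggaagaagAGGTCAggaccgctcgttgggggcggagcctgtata
Arntl, half-site, chr7:113207527-113207556, plus strand: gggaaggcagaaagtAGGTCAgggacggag

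The E-box was in windows of 2 members, Per1 and Cry1, starting 166 and 60 bases upstream of the start site. That is 2 of the 13 member windows, beside 7.15% of all 32851 windows. The D-box was in 1 member, Per3, with 2 copies starting 205 and 158 bases upstream. It was in 1 of the 13 member windows and in 2.32% of all windows. The half-site was in windows of 4 members (Arntl, Clock, Nr1d2 and Per1), 4 of the 13 member windows, and in 16.3% of all windows. In Arntl it lay 31 bases downstream of the start, and in Nr1d2 77 bases upstream. The cyclic AMP element was in none of the members' windows and in 1.79% of all windows. A match is a description of these letters only, and binding was not measured.

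Clock genes were broadly expressed, and their levels spanned a wide range. Of the 10 members, 9 had counts and were tested, and all 9 were above 1 RPKM by edgeR's quasi-likelihood test with adjustment over 21044 genes. Over all genes tested, 43.2% were called above. The members' median was 3.93 RPKM, and that of all genes tested was 0.738. By edgeR, limma and DESeq2, 0 of the 9 were called below, also at an unadjusted p under 0.05, where these tools called 13.5%, 46.9% and 1.27% of all genes tested below at the adjusted threshold. Per1 was listed at 0 and not tested. From highest to lowest the order was Nr1d2, Clock, Dbp, Arntl, Cry1, Nr1d1, Per3, Per2 and Cry2. DESeq2 called 5 of the 9 above, with 35.5% of all genes, and left Nr1d1, Per3, Per2 and Cry2 uncalled (adjusted p = 0.0653, 0.0777, 0.444 and 0.559). Its p-values did not follow the counts. Per2, at a DESeq2 log2 level of 0.98 against 1 RPKM, had 369, 512 and 465 counts in replicates 1, 2 and 3. Usp2, a related gene at log2 −5.55, had 1, 4 and 0 counts and a DESeq2 adjusted p of 0.102. The cause was not tested.

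**Figure D1:**
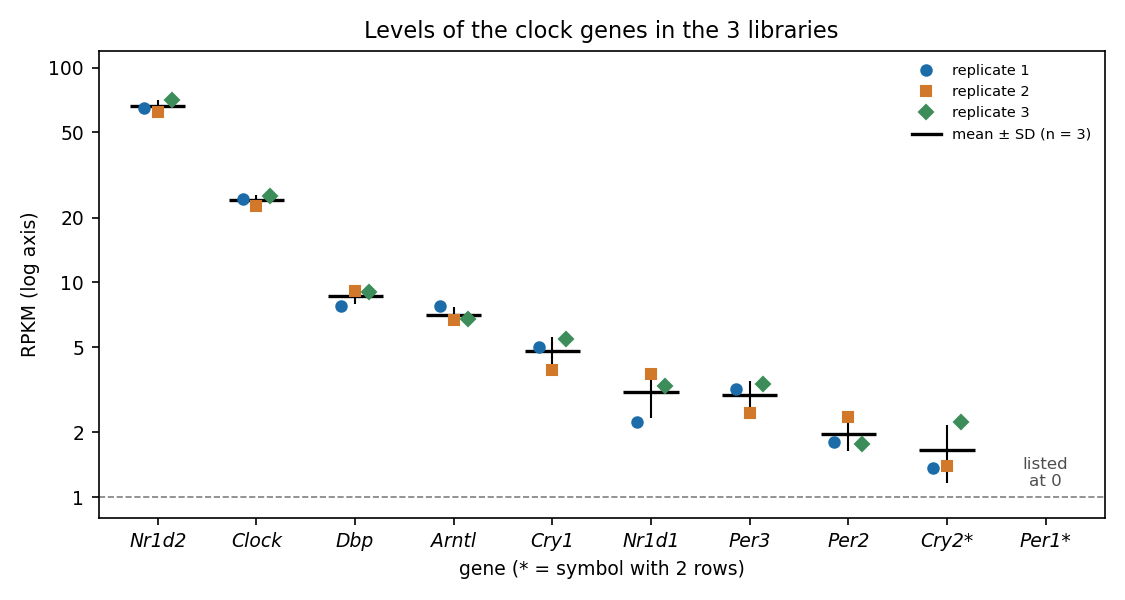
RPKM of the 10 clock genes (log axis) in replicates 1, 2 and 3, with the mean as a horizontal bar and the SD as a vertical line; the dashed line marks 1 RPKM. Nr1d2 stands highest at 66.0 RPKM and Clock second at 24.2, the other members with counts lie between 1.66 and 8.63, and Per1 is listed at 0.

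The activators were both well above 1 RPKM, with Clock higher than its partner. Clock, which encodes a histone acetyltransferase-type activator, stood at 24.6, 22.7 and 25.4 RPKM in replicates 1, 2 and 3 (24.2 ± 1.36, edgeR adjusted p = 2.68e-172 against 1 RPKM). Arntl, whose loss alone stops the clock, stood at 7.78, 6.70 and 6.72 RPKM (7.07 ± 0.621, edgeR adjusted p = 1.69e-75). No library of one gene overlapped the other. Clock exceeded Arntl 3.40-fold, with a log2 ratio of Arntl over Clock of −1.76 ± 0.13 on the scale of log2(RPKM + 0.1), in 3 of 3 libraries. The exact sign-flip permutation test gave p = 0.25, the smallest value that 3 libraries allow, for this ratio and for every ratio below that had the same direction in all libraries. The size depended on the length taken for Clock, whose annotated transcripts run from 5508 to 9744 bases, with a log2 ratio of −2.06 for the shortest and −1.51 for the longest transcripts.

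The Rev-erb pair was the most unequal of the paralogue pairs among the members with counts. Nr1d2 was present at 65.0, 62.1 and 70.9 RPKM (66.0 ± 4.50), which placed it at percentile 94.6 of all genes tested. Nr1d1 was present at 2.25, 3.72 and 3.31 RPKM (3.09 ± 0.763), at percentile 64.1. Nr1d2 exceeded Nr1d1 in every library, by 29.0-fold per unit length in replicate 1 (exact 95% binomial interval 25.3 to 33.3), 16.7-fold in replicate 2 (15.1 to 18.5) and 21.5-fold in replicate 3 (19.4 to 23.7). These intervals cover counting error only, and they did not overlap between any of the replicates. The mean log2 ratio of Nr1d1 over Nr1d2 was −4.40 ± 0.39, a difference of 21.1-fold. Nr1d1 was also below Arntl, the gene its protein represses, by 2.29-fold (log2 ratio of Nr1d1 over Arntl −1.19 ± 0.49, 3 of 3 libraries). Nr1d1 and Nr1d2 each had 1 row and 1 annotated transcript, so no alternative of transcript length or row handling moved their ratio. Exons of Nr1d1 share 263 bases, 9.67% of its exon bases, with Thra on the opposite strand. Thra stood at 13.8, 15.3 and 12.3 RPKM, and since the use of strand in counting is not given, reads of that stretch cannot be assigned to either gene.

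Among the Per genes, Per3 and Per2 were at low levels and Per1 was listed at 0. Per3, the member of the family least needed for rhythm, stood at 3.19, 2.47 and 3.35 RPKM (3.00 ± 0.468). Per2, a core repressor, stood at 1.80, 2.35 and 1.76 RPKM (1.97 ± 0.332), highest in the library where Per3 was lowest. The log2 ratio of Per3 over Per2 was 0.58 ± 0.45, a 1.50-fold difference in favour of Per3 in 3 of 3 libraries, with 0.07 in replicate 2 as the smallest. Per1, a repressor and an immediate target of cyclic AMP signalling, has 2 rows, and both held 0 counts in all 3 libraries. A count of 0 allows up to 3 counts per library, or 0.0186, 0.0175 and 0.0145 RPKM in replicates 1, 2 and 3, but with 2 rows this value is not read as absence.

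Of the Cry genes, which encode the repressors of the activator pair, Cry1 was the higher. Cry1 stood at 5.0, 3.90 and 5.42 RPKM (4.77 ± 0.787). Cry2 stood at 1.36, 1.39 and 2.24 RPKM (1.66 ± 0.50), with replicate 3 apart from the others. Cry1 exceeded Cry2 2.81-fold, with a log2 ratio of 1.49 ± 0.29, in 3 of 3 libraries and with no overlap. Cry2 has 2 rows, which held 8, 14 and 46 counts and 139, 145 and 265 counts in replicates 1, 2 and 3, so its level and this ratio are uncertain. The call of Cry2 above 1 RPKM (edgeR adjusted p = 0.000413) was lost without replicate 3 (edgeR adjusted p = 0.104) and with the longest transcript (0.101). With the mean over its rows in place of their sum, Cry2 had a log2 level of −0.26 against 1 RPKM (edgeR adjusted p = 0.393). Cry1 over Cry2 was then 2.41 on the log2 scale.

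Dbp, the output gene, was below only Nr1d2 and Clock among the members, at 7.78, 9.12 and 8.99 RPKM (8.63 ± 0.737). Its difference from Arntl was small: the log2 ratio of Dbp over Arntl was 0.29 ± 0.25, and in replicate 1 the levels of these genes were equal to within 0.01 on the log2 scale. Dbp exceeded Nr1d1, another direct E-box target, 2.79-fold (log2 ratio 1.48 ± 0.25, 3 of 3 libraries). Exons of Dbp share 539 bases, 29.3% of its exon bases over all transcripts, with Sphk2 on the opposite strand. Sphk2 was at 0.163, 0.117 and 0.343 RPKM, a level that is uncertain because this symbol has 3 rows. As for Nr1d1 and Thra, the use of strand in counting is not given. Reads of that stretch therefore cannot be assigned to either gene.

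Neighbours were paired by the order of mean level in these same libraries, so the direction of each difference in mean level was set in advance. With this limit, most neighbours differed by more than 1 SD of their within-library difference, and 2 pairs did not. The lowest pair, Cry2 and Per1, rests on the 0 of Per1. Nr1d1 and Per3 had a log2 ratio of 0.02 ± 0.53 and changed places between libraries, with Per3 higher in 2 of 3 (exact sign-flip permutation p = 1). Per2 and Cry2 had a log2 ratio of 0.26 ± 0.54, with Per2 higher in 2 of 3 libraries (exact sign-flip permutation p = 0.5). The narrowest spread was between the top members: Nr1d2 exceeded Clock 2.72-fold with a log2 ratio of 1.44 ± 0.04. Dbp and Arntl changed order with the longest transcripts, where their log2 ratio was −0.14.

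Summed by role, transcripts of the Rev-erb repressors were the most abundant. Dbp, the only output gene, was below the 5 Per and Cry genes in every library, but in replicate 2 it was above the 3 of them with 1 row (9.12 against 8.72 RPKM). The activators summed to 32.3, 29.4 and 32.1 RPKM (31.3 ± 1.63), and the Rev-erb genes to 67.3, 65.8 and 74.3 RPKM (69.1 ± 4.50). The 5 Per and Cry genes summed to 11.4, 10.1 and 12.8 RPKM (11.4 ± 1.33), of which the 3 with 1 row held 9.75 ± 0.929 RPKM. Nr1d1 and Nr1d2 made up 57.4% of the members' summed level, Arntl and Clock 26.0%, the Per and Cry genes 9.45% and Dbp 7.18%. The Rev-erb sum, almost all of it Nr1d2, exceeded that of the activators 2.20-fold (log2 ratio 1.14 ± 0.08), and the activators exceeded the Per and Cry genes 2.74-fold (log2 ratio of Per and Cry over activators −1.45 ± 0.11). Activators also exceeded Dbp, 3.60-fold (log2 ratio of Dbp over activators −1.85 ± 0.18). Each direction held in 3 of 3 libraries. Per1 added 0 to the Per and Cry sum, and Cry2, also with 2 rows, added 1.66 RPKM on average.

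**Figure D2:**
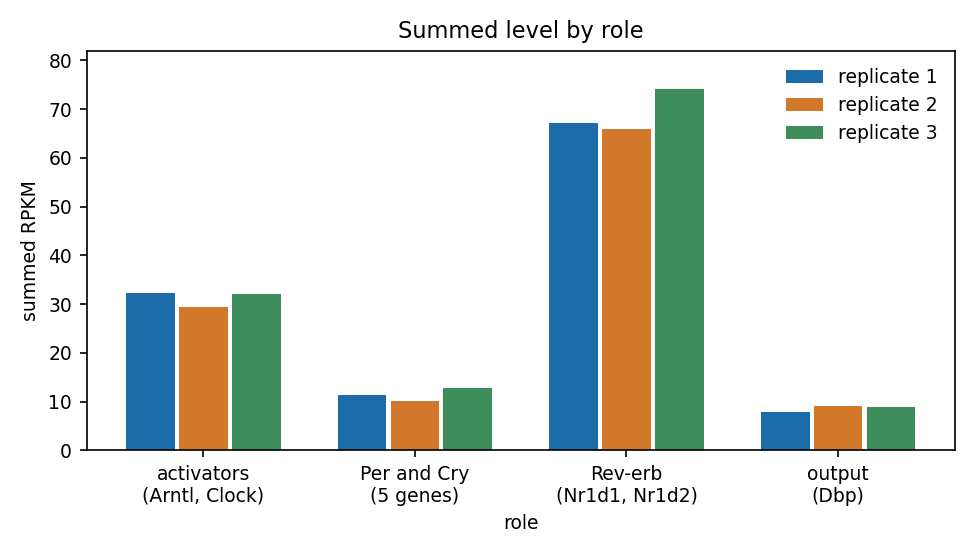
Summed RPKM of the activators, the 5 Per and Cry genes, the Rev-erb genes and the output gene Dbp, with 1 bar for each replicate. The Rev-erb bars lie between 65.8 and 74.3, the activators between 29.4 and 32.3, and the Per and Cry genes between 10.1 and 12.8, with no overlap between these roles.

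Both members with several rows, Per1 and Cry2, were the lowest of the 10. Among all symbols with a length, 29.8% of the 2248 with 2 rows were listed at 0 in all libraries, against 5.03% of the 19785 with 1 row. Called above 1 RPKM were 18.7% of the symbols with 2 rows and 43.1% of those with 1 row. The 8 members with 1 row were all called above 1 RPKM, with a median of 5.92 RPKM. How the authors counted reads shared by several rows of a symbol is not given in the sources used here.

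Genes that work with the core clock were described from lists of 38 genes, all of them found in the files, 2 under older symbols. By the same edgeR test, 23 were called above 1 RPKM, 6 below and 6 neither, and 3 were listed at 0, beside 43.2% above and 13.5% below over all genes tested. Their median was 3.44 RPKM. All 23 genes called above had 1 row, out of 30 such genes, and none of the 8 with several rows had a mean above 1 RPKM.

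Paralogues of the activators were low. Npas2, which can replace Clock as the partner of Arntl, stood at 0.496, 0.348 and 0.798 RPKM (0.548 ± 0.229) and was called below 1 RPKM (edgeR adjusted p = 0.0226), a call lost without replicate 1 (0.104) or replicate 2 (0.192). Clock exceeded Npas2 39.1-fold, with a log2 ratio of Npas2 over Clock of −5.29 ± 0.43. Arntl2, the paralogue of Arntl, stood at 0.609, 0.932 and 0.947 RPKM and was not called (edgeR adjusted p = 0.548). Arntl exceeded it 7.81-fold (log2 ratio of Arntl2 over Arntl −2.97 ± 0.44). Both paralogues were below the core activator in 3 of 3 libraries.

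Of the ROR receptors, which activate Arntl at the sites that the Rev-erb proteins repress, Rora was above 1 RPKM and Rorb below. Rora stood at 3.73, 4.28 and 3.50 RPKM (3.84 ± 0.401, edgeR adjusted p = 1.45e-52). Rorb (2 rows) had 17, 10 and 0 counts. Rorb was called below 1 RPKM (edgeR adjusted p = 0.0299), but not when replicate 1 (0.216) or replicate 2 (0.189) was left out, nor with its shortest transcript (0.103). Nr1d2 exceeded Rora 16.8-fold (log2 ratio of Rora over Nr1d2 −4.07 ± 0.24, 3 of 3 libraries). That ratio was −2.72 with the shortest and −4.74 with the longest transcripts of Rora, so Nr1d2 was higher with each length.

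Of the D-box factors, the repressor was above the activators. Nfil3 (E4bp4), which represses at the D-box, stood at 21.4, 23.1 and 18.5 RPKM (21.0 ± 2.32). It exceeded Dbp 2.41-fold, with a log2 ratio of Dbp over Nfil3 of −1.27 ± 0.21 in 3 of 3 libraries. Hlf and Tef, activators related to Dbp, were called below 1 RPKM at 0.568 ± 0.218 and 0.195 ± 0.0584 RPKM (edgeR adjusted p = 0.0115 and 0.00312). Tef has 2 rows, and the call of Hlf was lost without replicate 2 (edgeR adjusted p = 0.188). DESeq2 called neither (adjusted p = 0.675 for Hlf and 0.527 for Tef). Dbp exceeded Tef 29.9-fold on the scale of log2(RPKM + 0.1) (log2 ratio of Tef over Dbp −4.90 ± 0.19, 3 of 3 libraries). Per unit length, without the added 0.1, the difference was 58.1-fold, 45.1-fold and 35.9-fold in replicates 1, 2 and 3. With the mean over rows in place of their sum, the log2 ratio was −5.47.

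**Figure D3:**
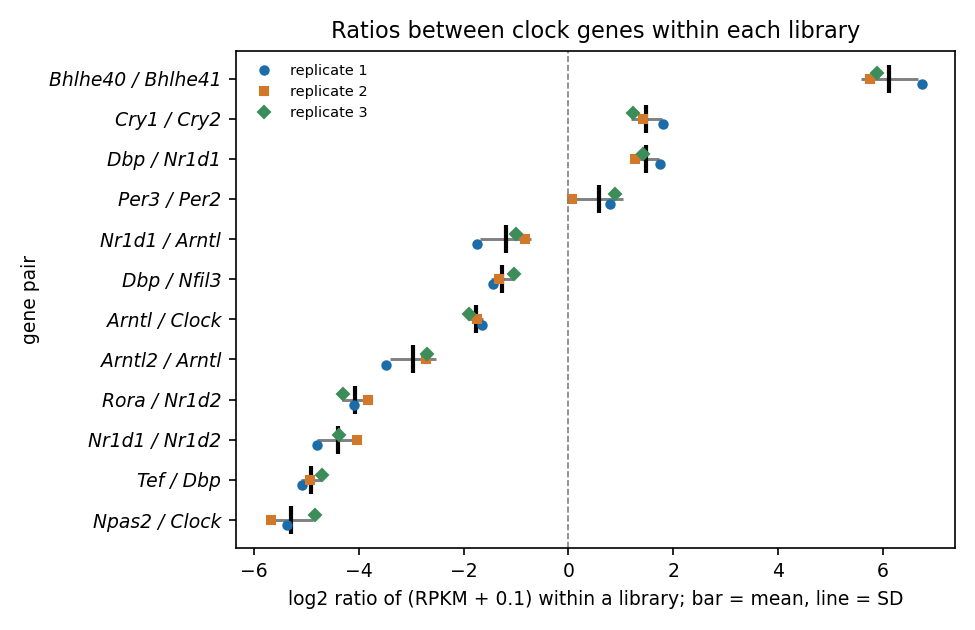
Log2 ratio of (RPKM + 0.1) between 2 genes within each library for 12 gene pairs; symbols stand for replicates, the black bar for the mean and the grey line for the SD. Every point of a pair lies on the same side of 0, from −5.29 on average for Npas2 over Clock to 6.12 for Bhlhe40 over Bhlhe41.

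Bhlhe40 (Dec1), a repressor that competes for E-boxes, stood at 75.3, 71.6 and 70.8 RPKM (72.6 ± 2.39), a level near that of Nr1d2. Which of them was higher depended on the transcript length: against 1 RPKM, the log2 level of Bhlhe40 was 6.18 with the median, 8.10 with the shortest and 5.39 with the longest transcript, beside 6.04 for Nr1d2 with each. Its relative Bhlhe41 (Dec2) was at 0.603, 1.24 and 1.11 RPKM and not called (edgeR adjusted p = 0.969). Bhlhe40 exceeded Bhlhe41 69.6-fold, with a log2 ratio of 6.12 ± 0.54. The log2 level of Bhlhe41 against 1 RPKM was 2.18 with its shortest transcript and −0.86 with its longest. Ciart (Chrono), a further repressor of the activator pair and listed under its older symbol, stood at 1.41, 1.86 and 2.91 RPKM (edgeR adjusted p = 2.68e-05).

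Kinases and phosphatases of clock proteins were mostly above 1 RPKM. Among 9 of them, 7 were called above, beside 43.2% of all genes tested, and their median was 23.5 RPKM. Ppp1cb, a catalytic subunit of protein phosphatase 1, stood at 507 ± 22.3 RPKM, Csnk2a1, a catalytic subunit of casein kinase 2, at 136 ± 6.22, and Csnk2b at 27.0 ± 6.76. Prkaa2 was called below at 0.419 ± 0.112 RPKM, whereas Csnk1d, a kinase of the Per proteins with 2 rows, was listed at 0. Its relative Csnk1e, with 1 row, stood at 9.58, 8.02 and 11.6 RPKM (9.74 ± 1.81).

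Ubiquitin ligases and proteases set how long clock proteins last. Fbxw11, a ligase of the Per proteins, stood at 37.3, 33.8 and 37.3 RPKM (36.1 ± 2.04), while its paralogue Btrc (2 rows) had 25, 0 and 11 counts. Fbxl21, a ligase of the Cry proteins, was not called at 1.32 ± 0.348 RPKM (edgeR adjusted p = 0.192). Usp2, a deubiquitinase with 3 rows, had 1, 4 and 0 counts, and neither Btrc nor Usp2 was called (edgeR adjusted p = 0.083 and 0.111).

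Of the 13 cofactors of the clock, 10 were called above 1 RPKM, beside 43.2% of all genes tested. The 2 listed at 0 were not tested, and the median level of the list was 19.0 RPKM. Nono, an RNA-binding partner of the Per proteins, stood at 112 ± 7.56 RPKM. Nampt, the rate-limiting enzyme of NAD salvage, stood at 50.0 ± 1.74, and Sfpq, the partner of Nono, at 46.1 ± 2.89. Hdac3 and Ncor1, the corepressors through which the Rev-erb proteins act, stood at 19.0 ± 0.989 and 9.57 ± 0.369 RPKM, and both were above Nr1d1 and below Nr1d2 in every library. Sirt1, with 3 rows, was called below (0.238 ± 0.0979 RPKM, edgeR adjusted p = 0.00478). Timeless (4 rows) and Cipc (2 rows, under its older symbol) were listed at 0, while Tipin, the partner of Timeless, with 1 row, stood at 27.9 ± 2.54.

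**Figure D4:**
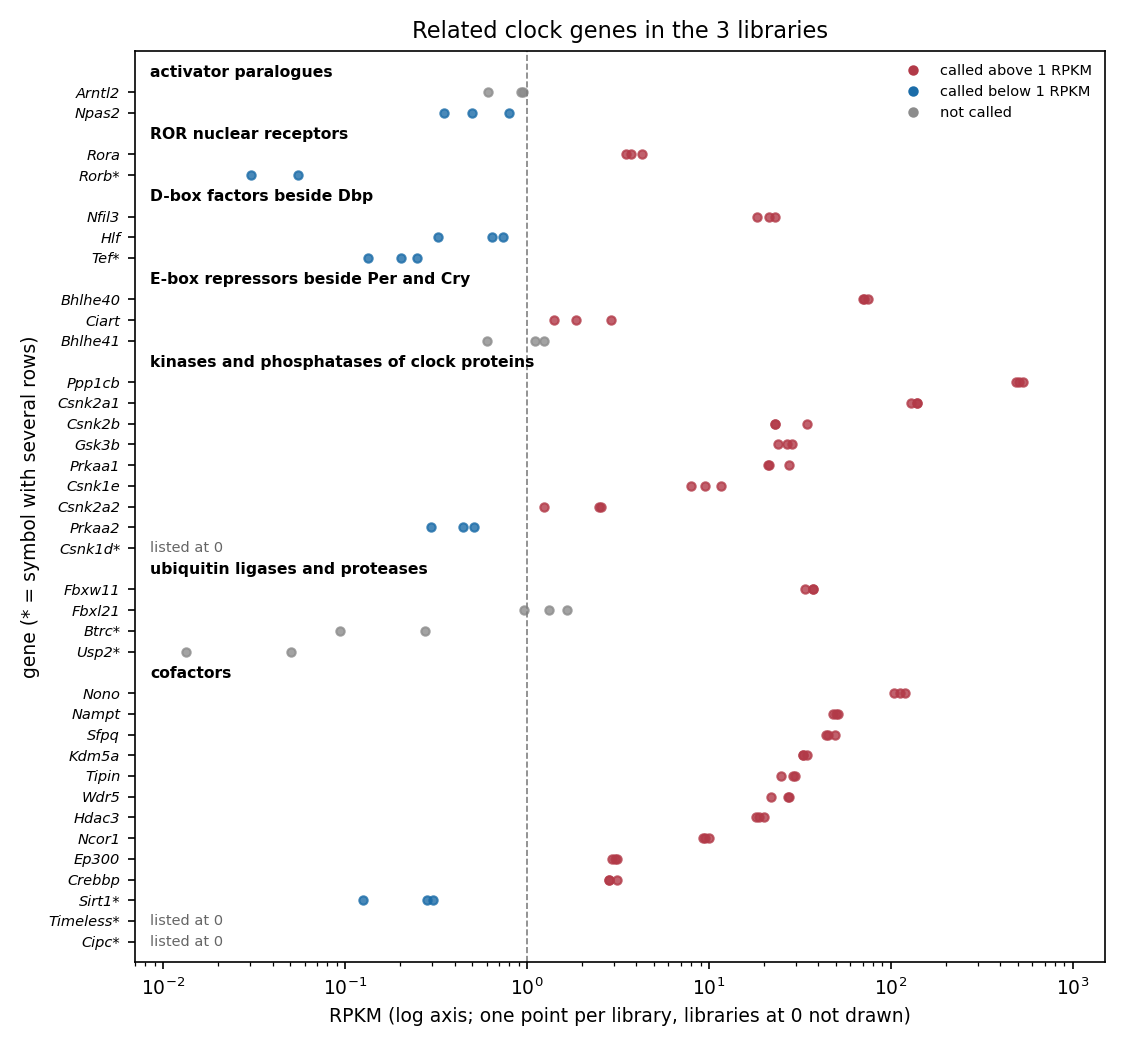
RPKM (log axis) of related clock genes in each library, grouped by list, with colour for the call against 1 RPKM; the dashed line marks 1 RPKM. Genes called above all have 1 row, and the 3 genes listed at 0 (Csnk1d, Timeless and Cipc) all have several.

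Transcripts of many clock genes cycle over the day, so their spread between libraries was set beside that of other genes. The SD of log2(RPKM + 0.1) ranged from 0.08 for Clock to 0.38 for Cry2. It was above the median of genes at a like level (0.5 to 2 times the member's mean RPKM) for 3 of 9 members: Cry1, Nr1d1 and Cry2. Nr1d1 stood highest against its own level, at 0.37 where the median of 3119 genes was 0.24 (percentile 75.6), and its highest library exceeded its lowest 1.66-fold. Counting error alone gives an SD of 0.08 for Nr1d1. Clock, at 0.08 against a median of 0.13 (percentile 25.7), and Arntl, at 0.12 against 0.17 (percentile 30.6), were among the steadier members. With replicates 1, 2 and 3 left out in turn, 5, 5 and 6 members were above the median, so the count rests on the set of libraries.

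Members did not all rank the libraries in the same order. Per2, Nr1d1 and Dbp were highest in replicate 2, in which Nr1d2, Clock, Arntl, Cry1 and Per3 were lowest. For Dbp (9.12 RPKM in replicate 2, 8.99 in replicate 3) and Arntl (6.70 and 6.72) the difference from replicate 3 was within counting error. Their places are thus close to ties. Replicate 3 held the highest level of 5 of the 9 members with counts and replicate 2 the lowest of 5. Over 9220 genes with 1 row and a mean of at least 1 RPKM, replicate 3 held the highest level of 42.7% and replicate 2 the lowest of 40.1%. With 3 libraries of 1 group no correlation between members was computed.

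**Figure D5:**
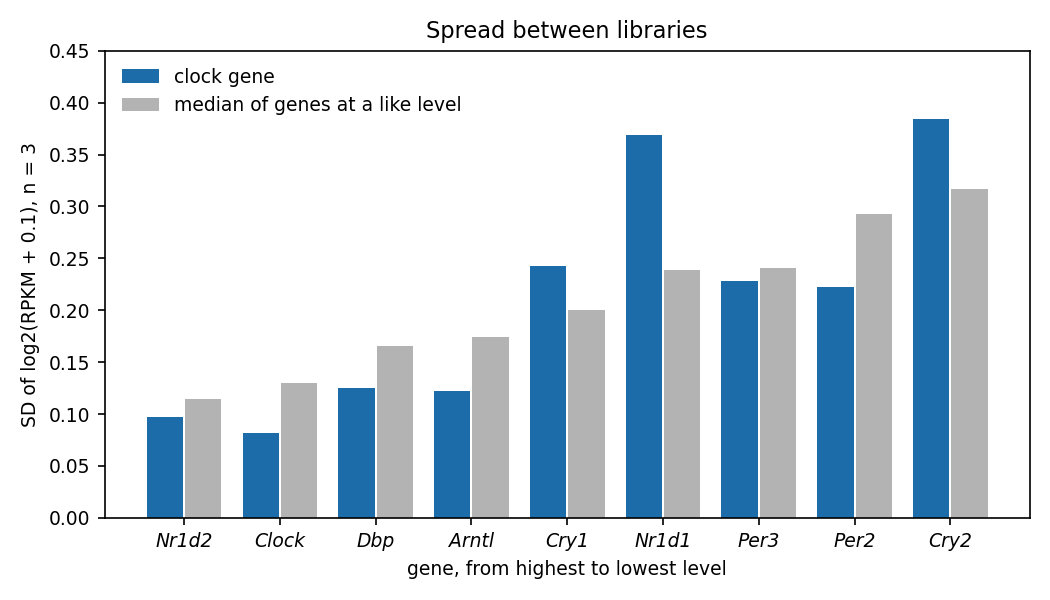
SD over the 3 libraries of log2(RPKM + 0.1) for each clock gene with counts, from highest to lowest level, beside the median SD of all genes at a like level. The bar of the clock gene exceeds that of the other genes for Cry1, Nr1d1 and Cry2, and is lower for the other 6 members.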

How the data were processed

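The deposited files list, per transcript row named by gene symbol, a whole number that was used as a raw count, although the authors' file names say RPKM. The 30795 rows hold 25410 symbols, 3470 with several rows. Per the submitters' processing notes, TopHat and build mm9 were used; the sources used here do not name the counting tool, annotation, use of strand or treatment of shared reads. RPKM was computed from the median length of GENCODE M21 basic transcripts (GRCm38), found for 23080 symbols, 90.8%, which held 96.3% to 96.5% of counts.

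Each gene with a length and at least 1 count was tested against 1 RPKM, two-sided, with edgeR 4.0.16 (R 4.3.3; quasi-likelihood, robust, trended dispersion, threshold 0.05, Benjamini-Hochberg). Small adjusted p-values reflect a spread estimate shared over all genes. limma 3.58.1 and DESeq2 1.42.0 were alternatives, with the expected count at 1 RPKM as factors in DESeq2. With these factors the DESeq2 p-values did not follow the counts, for a cause that was not tested. Ratios were differences of log2(RPKM + 0.1) within a library; folds so computed are understated for low genes. The p of a ratio does not cover a length or sequence bias shared by all libraries.

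Members were matched by symbol alone, but the members and lists were chosen with earlier results of these data known. Named were all members, all genes of the pairs, all of lists of up to 5 genes, and in longer lists the 3 highest and those below 1 RPKM or at 0; Csnk1e, Tipin, Hdac3 and Ncor1 were added after their values were seen. Of the related genes, 2 are counted but not reported here. The replicates are biological per the series' design text.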

Additional observations from a re-analysis of the deposited data

How the results depend on the processing

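Of the alternatives for the members' levels, 100 of 107 kept the direction and the call. Many of these could not change the level itself. They were the filters on counts, the row settings for symbols with 1 row, and transcript length for genes with 1 annotated transcript. The 100 thus include agreements in level that were set in advance. The count above 1 RPKM was 5 with DESeq2 and 8 to 9 with any replicate left out, and the count below was 1 without a filter on low counts (Per1) and 0 with any replicate left out. The level of Cry2 changed direction with the mean over rows (log2 −0.26), that of Bhlhe41 with the shortest transcript (2.18), and Dbp over Arntl with the longest (−0.14). Of the related genes, 6 were below in the main test. The count was 3 among symbols with 1 row, 0 with DESeq2 (1 at an unadjusted p under 0.05) and 3 to 6 with a replicate left out. It was 9 with limma, with the longest transcript and without a filter on low counts. Over all genes, the share below was 13.5% in the main test, 11.9% with 1 row, 1.27% with DESeq2 and 46.9% with limma. It was 17.2% with the longest transcript, 18.9% without a filter and 4.55% to 12.4% with a replicate left out. In these and the DESeq2 calls the cause was not tested.

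No role ratio changed direction. No alternative could add counts to Per1, listed at 0 in both rows. The effect of that 0 on the Per and Cry sum was therefore not tested. With the shortest and longest transcripts the log2 ratio to the activators was −1.75 and −1.18 for Per and Cry, 0.76 and 1.46 for Rev-erb, and −2.11 and −2.07 for Dbp. Without Per1 and Cry2, an alternative chosen after seeing the data, Per and Cry over activators was −1.68 and Rev-erb over Per and Cry was 2.82, beside 2.59 with all members, 2.50 with a pseudocount of 1 and 2.70 with the mean over rows. The number of members with a spread above the median at a like level was 5 to 6 with a replicate left out, also added after seeing the data. No paired analysis was possible because the 3 libraries form 1 group. At this depth Rorb, Btrc and Usp2 rest on 0 to 25 counts per library.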
